A study of Mus musculus with 14 samples.

Results

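The genes described here encode the classical axon guidance ligands and receptors: semaphorins, plexins, neuropilins, Slit and Robo proteins, netrins and the netrin receptors Dcc and Unc5. They were taken by symbol (Sema3 to Sema7, Plxna to Plxnd, Nrp1 and Nrp2, Robo1 to Robo4, Slit1 to Slit3, Ntn1 to Ntn5, Unc5a to Unc5d, Dcc) from every count table of a mouse intestinal organoid study. The rule found 48 symbols: 20 semaphorins, 9 plexins, 2 neuropilins, 4 Robo receptors, 3 Slit ligands, 4 netrins, 5 netrin receptors and 1 antisense RNA, Plxna4os1. Of these, 45 were among the 27399 genes of the bulk tables (Robo2, Dcc and Plxna4os1 were not listed there), and between 37 and 45 were among the 17496 to 20063 genes of the 4 single-cell matrices.

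The organoids are cultures of intestinal epithelium grown in ENR medium (EGF, Noggin and R-spondin), and treatment with 25 µM Isx-9 or with its vehicle, 0.05% DMSO, began on day 2 after passaging. Isx-9 (isoxazole-9) is a small molecule known for driving neural progenitor cells towards neurons, and the series title names enteroendocrine cells, which secrete the gut's hormones, as its subject here. For bulk RNA-seq, organoids with the Lgr5-EGFP knock-in received DMSO or Isx-9 for 6 hours, and their stem cells were sorted (2 libraries per treatment). Single-cell RNA-seq measured 1 library each of untreated wild-type organoids, untreated Chgb-mCherry knock-in organoids, and Chgb-mCherry organoids after 6 days of DMSO or of Isx-9. Both knock-in alleles are reporters carried by control and treated organoids alike. Organoids of this kind hold epithelium without nerves, vessels or stroma, and the labels do not say whether libraries came from separate cultures, so the p-values of the bulk comparison rest on the scatter among these libraries, which may be technical.

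Guidance ligands steer growing axons by attraction or repulsion. Semaphorins act on plexins, with neuropilins as coreceptors for most secreted semaphorins, while Slits act on Robo receptors and netrins on Dcc and Unc5 receptors. The receptors signal to the cytoskeleton through small GTPases and collapsin response mediator proteins. Outside the nervous system the same families take part in vessel patterning, epithelial adhesion and migration, and gut epithelium expresses several of them.

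RefSeq promoter windows (250 bases before to 50 after the start site, build GRCm38.p6) were available for 38 of the 48 members. Of their 51 windows, 2 (3.92%) held the E-box CAGATG on either strand, the form of the E-box CANNTG that proneural factors such as Neurod1 and Neurog3 favour, against 17.2% of all 32851 windows. The MEF2 site, searched by name, was in 0 of the 51 windows and in 0.557% of all windows. The median GC content was 64.0% in the members' windows and 52.7% in all windows. The 4 windows below belong to members the results turn on: Robo3, Plxnd1 and Unc5a, which rose steeply, and Sema3c, the 1 member that rose and held CAGATG, printed in capitals and starting at position -200 from the start site. They lie at chr9:37433126-37433425 (minus strand), chr6:115994956-115995255 (minus strand), chr13:54949161-54949460 (plus strand) and chr5:17574566-17574865 (plus strand), in that order, and are written 5′ to 3′ on the gene's strand.
Robo3: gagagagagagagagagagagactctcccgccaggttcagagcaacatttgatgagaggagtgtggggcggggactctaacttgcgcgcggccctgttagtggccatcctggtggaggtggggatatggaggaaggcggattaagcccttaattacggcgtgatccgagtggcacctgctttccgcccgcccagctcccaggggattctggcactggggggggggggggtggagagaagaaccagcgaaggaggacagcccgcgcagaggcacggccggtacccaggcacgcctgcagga
Plxnd1: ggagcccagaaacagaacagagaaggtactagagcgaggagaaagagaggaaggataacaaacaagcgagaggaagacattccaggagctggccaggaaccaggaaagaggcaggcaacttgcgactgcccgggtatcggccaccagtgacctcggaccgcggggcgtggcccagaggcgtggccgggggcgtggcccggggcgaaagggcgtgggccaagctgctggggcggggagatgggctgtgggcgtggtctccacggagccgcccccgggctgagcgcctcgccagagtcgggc
Unc5a: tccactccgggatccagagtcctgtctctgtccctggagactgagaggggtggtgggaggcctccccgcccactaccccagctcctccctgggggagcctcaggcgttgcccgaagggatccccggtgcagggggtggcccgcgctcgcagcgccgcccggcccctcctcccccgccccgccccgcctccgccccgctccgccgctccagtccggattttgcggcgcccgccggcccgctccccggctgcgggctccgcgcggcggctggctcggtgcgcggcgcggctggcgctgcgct
Sema3c: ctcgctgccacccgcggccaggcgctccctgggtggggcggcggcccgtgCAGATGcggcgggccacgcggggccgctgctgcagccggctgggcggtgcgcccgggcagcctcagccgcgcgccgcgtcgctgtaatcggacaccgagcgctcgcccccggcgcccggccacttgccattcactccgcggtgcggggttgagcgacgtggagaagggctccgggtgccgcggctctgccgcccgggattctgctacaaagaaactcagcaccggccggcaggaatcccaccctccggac
The windows of Robo3, Plxnd1 and Unc5a held neither motif, which says only that these letters are not in the 300 bases shown.

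Bulk libraries held between 18909542 and 19487264 counts. More genes had a count with Isx-9 (23881 and 23695) than with DMSO (21237 and 20942). Lgr5, the gene that carries the reporter used for the sort, stood at 378 and 341 CPM (TMM-scaled counts per 1e6 counts) in DMSO and 312 and 320 CPM with Isx-9. The single-cell libraries kept 8045 to 9215 cells with medians of 8897 to 14563 UMIs (unique molecules) per cell, lowest with Isx-9, and pairs of libraries shared between 13 and 36 cell barcodes.

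At 6 hours, most guidance genes measured in the sorted stem cells were higher with Isx-9. Of 37 members with enough counts to test, 26 rose, 4 fell and 7 did not pass an adjusted p of 0.05 (edgeR quasi-likelihood test, Benjamini-Hochberg over all genes), where 27.3% of the 17418 genes tested rose and 20% fell. Both Isx-9 libraries lay above both DMSO libraries for 28 of the 37 members and for 38.9% of genes, and below them for 5 members and for 34.8% of genes. The members' median log2 fold change was 1.49, against 0.02 over all genes tested. With library size as the only scaling the median over all genes was 0.14, and 5475 genes rose and 2095 fell in place of 4755 and 3488; the same number of members, 26, rose and 2 fell. The receptors Plxnd1 and Unc5a and the ligand Sema6b had the lowest adjusted p-values, and Robo3 and Ntn1 went from 1 and 0 counts over the DMSO libraries to 542 and 480 with Isx-9. Because bulk RNA averages over cells, fewer cells of a type and less RNA per cell cannot be told apart in any of these values.

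Among the secreted semaphorins, 4 of the 6 tested rose, against 27.3% of all genes tested. Sema3f, a repulsive ligand that signals through Nrp2, read 5.92 and 2.26 CPM in DMSO and 31.7 and 24.3 CPM with Isx-9 (log2 fold change 2.77, SE 0.32). Sema3c, a ligand for Nrp1 and Nrp2 with Plxnd1 among its receptors, read 17.6 and 17.1 CPM in DMSO and 52.0 and 45.3 CPM with Isx-9 (log2 fold change 1.49, SE 0.13). Both Isx-9 libraries lay above both DMSO libraries for each, by more than the gap between replicates. Sema3d rose from 0.108 and 0.331 to 3.84 and 4.89 CPM, and Sema3a, the ligand that gave the class its collapsin name, from 0 and 4 to 25 and 31 counts. Without Isx-9 replicate 2 the call for Sema3a was lost (log2 fold change 3.46; Benjamini-Hochberg adjusted p = 0.0751 in edgeR). Sema3b (42.7 and 29.6, then 40.8 and 39.8 CPM) overlapped between treatments, and Sema3g (0.484 and 0.386, then 0.797 and 1.15 CPM) did not pass, with a log2 fold change of 1.15 and an SE of 0.63. Sema3e had 1 count in all 4 libraries together and was not tested.

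The membrane-bound semaphorins split. In the Sema6 group, whose members are transmembrane ligands for A-type plexins, Sema6b read 2.31 and 2.53 CPM in DMSO and 23.9 and 26.3 CPM with Isx-9 (log2 fold change 3.37 with an SE of 0.20; Benjamini-Hochberg adjusted p = 4.3e-07 in edgeR). Sema6c rose from 0.915 and 0.331 to 7.92 and 6.54 CPM and Sema6a from 5.28 and 2.31 to 18.4 and 16.6 CPM, while Sema6d fell from 41.7 and 39.9 to 29.3 and 31.2 CPM (log2 fold change -0.43, SE 0.11). So 3 genes of this group rose and 1 fell, each with treatments that did not overlap. Sema5b went from 1 and 0 to 53 and 53 counts, a count ratio of 97.0 with an exact 95% interval of 17.05 to 3869, and Sema5a moved little, from 115 and 132 to 159 and 155 CPM (log2 fold change 0.35, SE 0.09). Sema4f had 0 counts in both DMSO libraries and 70 and 47 with Isx-9, at least 35.7-fold higher when 3 counts over both DMSO libraries are taken as the floor. Sema5b and Sema4f were below 0.1 CPM in DMSO, where all 901 genes tested rose because of the count filter, so their direction was not open. Sema4g showed the largest fall of the family, from 260 and 245 to 146 and 166 CPM (log2 fold change -0.70 with an SE of 0.08; Benjamini-Hochberg adjusted p = 6.1e-05 in edgeR). Sema4b fell from 46.7 and 51.1 to 39.0 and 39.9 CPM (log2 fold change -0.31, SE 0.10). Leaving out 1 of the 2 libraries of a treatment leaves a lone sample that is assumed to vary like the other treatment's pair, so a call lost or gained that way shows dependence on that library under this assumption. Sema4b's call as lower was lost with DESeq2 (log2 fold change -0.30, Benjamini-Hochberg adjusted p = 0.103) and without Isx-9 replicate 1, 2 or DMSO replicate 2 (edgeR, Benjamini-Hochberg adjusted p = 0.156, 0.129 and 0.132). Sema6d's call as lower was lost without Isx-9 replicate 1 (edgeR, adjusted p = 0.0754). Sema5a's call as higher was lost without DMSO replicate 1 (edgeR, adjusted p = 0.0685). Sema4a, Sema4c, Sema4d and the GPI-anchored Sema7a did not pass, with log2 fold changes from -0.24 to 0.08; Sema7a passed as lower once Isx-9 replicate 2 was left out (edgeR, adjusted p = 0.0354), and Sema3b as higher without DMSO replicate 1 (edgeR, adjusted p = 0.0253).

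Of the plexins, the semaphorin receptors, 6 of the 8 tested rose and 1 fell, against 27.3% and 20% of all genes tested. Plxnc1 and Plxna4 were below 0.1 CPM in DMSO, where all 901 genes tested rose because of the count filter, so their direction was not open. Plxnd1 (ENSMUSG00000030123), best known as the receptor that guides growing vessels, read 5.54 and 6.83 CPM in DMSO and 91.2 and 96.1 CPM with Isx-9. Its log2 fold change was 3.92 with an SE of 0.13, and its adjusted p the lowest of the members (Benjamini-Hochberg adjusted p = 5.4e-08 in edgeR). Plxnc1, the receptor of Sema7a, went from 0 and 3 to 208 and 96 counts, a count ratio of 92.8 with an exact 95% interval of 31.4 to 452. Plxna4 went from 1 and 1 to 18 and 14 counts (ratio 14.6, interval 3.74 to 126), but its call was lost with DESeq2 (Benjamini-Hochberg adjusted p = 0.0507) and without any 1 of the 4 libraries (edgeR, adjusted p from 0.0553 to 0.101). Plxna3 rose from 18.2 and 20.1 to 38.4 and 40.0 CPM and Plxnb1, a receptor of Sema4d, from 66.4 and 58.0 to 106 and 104 CPM. Plxna2 rose from 65.0 and 62.0 to 73.7 and 81.6 CPM (log2 fold change 0.29, SE 0.09), a call lost without DMSO replicate 1, DMSO replicate 2 or Isx-9 replicate 2 (edgeR, adjusted p = 0.0511, 0.109 and 0.143). Plxnb2, a plexin of epithelia and a receptor for several class 4 semaphorins, fell from 382 and 364 to 305 and 325 CPM (log2 fold change -0.25, SE 0.07). That call did not hold without DMSO replicate 1 or Isx-9 replicate 1 (edgeR, adjusted p = 0.0715 and 0.135) or with library size as the only scaling (edgeR, adjusted p = 0.195). Plxna1 overlapped between treatments at 104 and 96.7 against 92.4 and 100.1 CPM. Plxnb3, with 1 and 0 against 7 and 1 counts, was not tested.

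Both neuropilins rose. Nrp2 read 2.58 and 1.32 CPM in DMSO and 17.6 and 16.2 CPM with Isx-9 (log2 fold change 3.104, SE 0.29), and Nrp1, which is also a coreceptor of vascular endothelial growth factor, 5.06 and 7.11 then 16.7 and 17.5 CPM (log2 fold change 1.49, SE 0.22). Neither gene's treatments overlapped.

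In the Slit and Robo families all 4 members tested rose. Robo1 and Robo3 were below 0.1 CPM in DMSO, where all genes tested rose because of the count filter. The direction was therefore open only for Slit1 and Slit2. Robo3 (ENSMUSG00000032128), a divergent Robo known for letting commissural axons cross the midline, had 0 and 1 counts in DMSO and 286 and 256 with Isx-9, a ratio of 496 with an exact 95% interval of 88.7 to 19635. Robo1, a Slit receptor, went from 2 and 1 to 63 and 28 counts (ratio 27.8, interval 9.21 to 137). The ligand Slit1 read 3.50 and 2.20 CPM in DMSO and 12.7 and 13.02 CPM with Isx-9 (log2 fold change 2.17, SE 0.27), and Slit2 54.9 and 46.7 then 96.4 and 85.1 CPM (log2 fold change 0.84, SE 0.11). Treatments did not overlap for any of these 4 genes. Slit3 (0 and 4, then 0 and 0 counts) and Robo4, a Robo of endothelium (0 and 0, then 3 and 1 counts), were not tested.

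Netrins and their receptors followed the same direction where they could be tested. For Ntn1, with 0 counts in DMSO, the count filter fixed that direction. Ntn1 (ENSMUSG00000020902), the founding chemoattractant, had 0 counts in both DMSO libraries and 268 and 212 with Isx-9, at least 146-fold higher by the same floor of 3 counts. Ntn4, a laminin-binding netrin, rose from 4.15 and 7.16 to 12.9 and 10.7 CPM (log2 fold change 1.06, SE 0.28), a call lost without Isx-9 replicate 1 (edgeR, Benjamini-Hochberg adjusted p = 0.0778). Unc5a (ENSMUSG00000025876), a receptor for repulsion by netrin, read 4.52 and 3.97 CPM in DMSO and 40.4 and 37.6 CPM with Isx-9 (log2 fold change 3.20 with an SE of 0.16; Benjamini-Hochberg adjusted p = 1.7e-07 in edgeR). Unc5b rose from 38.8 and 26.4 to 51.4 and 48.2 CPM (log2 fold change 0.61, SE 0.16). Of the untested genes, Ntn3 had 1 and 3 then 16 and 9 counts, Unc5d 0 and 0 then 30 and 4, and Ntn5 and Unc5c 1 count each over the 4 libraries. The Isx-9 replicates of Unc5d differed widely, and its fold of at least 10.4 carries no test.

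**Figure D1:**
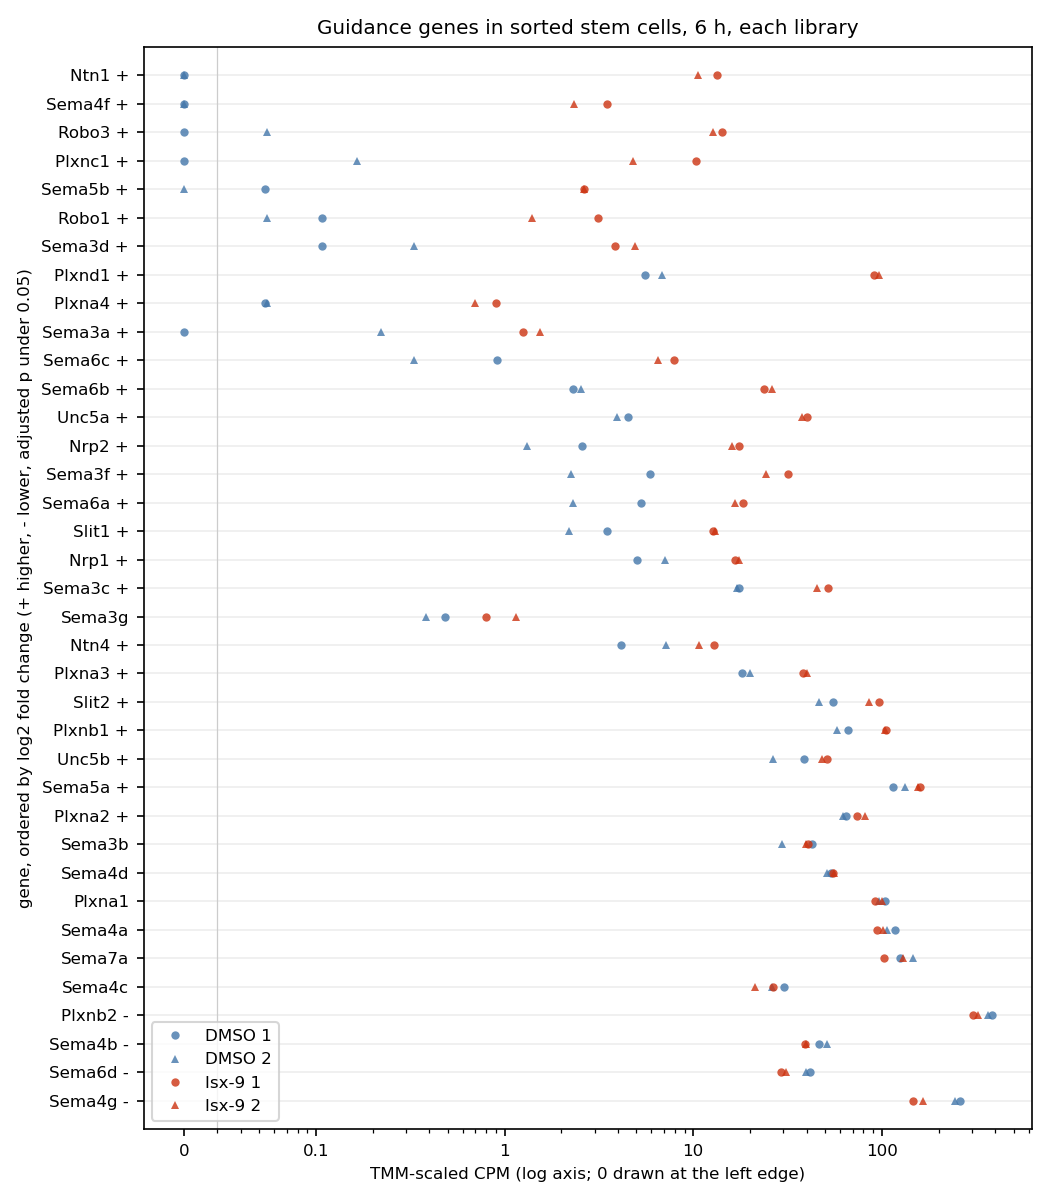
Level of each of the 37 tested guidance genes in the 4 bulk libraries, as TMM-scaled CPM on a log axis with 0 at the left edge, ordered by log2 fold change; blue is DMSO, red Isx-9, circles replicate 1 and triangles replicate 2. In the upper rows the red points lie far to the right of the blue ones, as for Plxnd1 (5.54 and 6.83 against 91.2 and 96.1 CPM), while rows from Sema3b to Sema4c overlap or nearly so.

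The share of genes that rose depended on the level in DMSO, so the members are set here beside genes of the same level. All 7 members below 0.1 CPM in DMSO rose: Ntn1, Robo1, Robo3, Plxna4, Plxnc1, Sema4f and Sema5b. So did all 901 genes at that level, since such genes passed the count filter only through Isx-9. Between 0.1 and 1 CPM, 3 of 4 members rose, against 49.7% of genes. Between 1 and 10 CPM, where the filter does not decide the direction, 9 of 9 members rose, against 29.2% of 4289 genes: Plxnd1, Unc5a, Sema6b, Nrp2, Sema3f, Sema6a, Slit1, Nrp1 and Ntn4. Between 10 and 100 CPM, 6 of 11 members rose and 2 fell, against 17.9% and 25.9% of genes, and above 100 CPM 1 of 6 rose (Sema5a) and 2 fell (Sema4g and Plxnb2), against 4.13% and 58.4%. These shares describe the genes at each level and are not a test of the group.

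**Figure D2:**
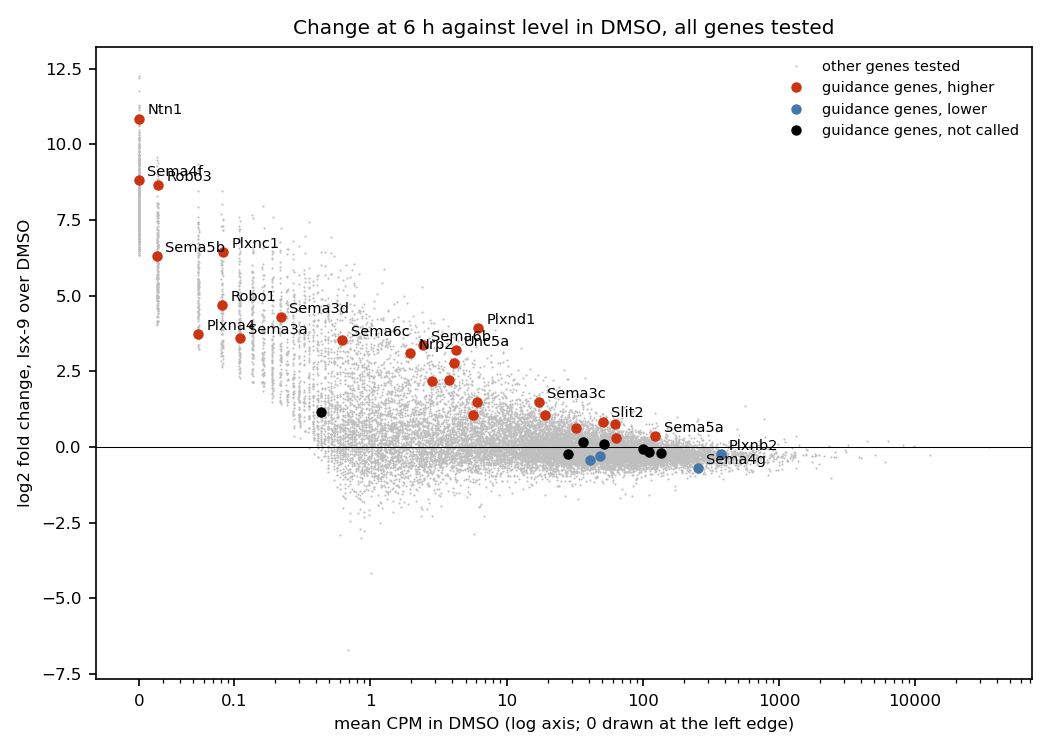
Log2 fold change of Isx-9 over DMSO at 6 hours (vertical) against mean CPM in DMSO (horizontal, log axis, 0 at the left edge) for all 17418 genes tested, in grey, with guidance genes in red (rose), blue (fell) or black (did not pass). Fold changes of all genes spread upwards as the DMSO level drops, and the 9 guidance genes between 1 and 10 CPM all lie above 0.

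Other genes of the pathway were divided. Of 35 tested effectors that act downstream of these receptors, 17 rose and 5 fell (median log2 fold change 0.33), against 27.3% and 20% of all genes. Enah, an actin regulator of the Ena/VASP family, went from 2 and 0 to 937 and 643 counts, and Dpysl3, a collapsin response mediator protein, from 7 and 1 to 540 and 450 counts. Dpysl4 and the actin-binding Ablim3, both at 0 in DMSO, were at least 20.1-fold and 13.7-fold higher. The 5 that fell were Arhgap39 (82.6 and 86.1, then 49.2 and 52.0 CPM; log2 fold change -0.74), Gipc1, Nck2, and the GTPases Rhoa (363 and 350, then 289 and 284 CPM) and Rac1 (318 and 306, then 253 and 254 CPM). Of 31 tested other guidance ligands, receptors and coreceptors, 20 rose and 5 fell (median log2 fold change 0.55). The netrin-G gene Ntng2, from 0 to 165 and 145 counts, was at least 94.6-fold higher, and Nrcam, an adhesion molecule and semaphorin coreceptor, went from 2 and 0 to 176 and 106 counts. Kdr and Flrt2, a ligand of Unc5 receptors, were at 0 in DMSO and at least 15.9-fold and 12.2-fold higher. Erbb2 and Itgb4 (both log2 fold change -0.75), Rgmb (-0.65), Sdc1 and Dag1 fell. Below 0.1 CPM in DMSO all 901 genes tested rose because of the count filter. The direction of Enah, Nrcam and the genes at 0 in DMSO was therefore fixed in advance. Between 0.1 and 1 CPM, where Dpysl3 lay, 49.7% of genes rose. Above 100 CPM, where Rhoa and Rac1 lay, 58.4% of genes fell.

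Markers of other tissues moved at the same time, where 27.3% of all genes tested rose and 20% fell. The share that rose was larger at low DMSO levels: 49.7% of genes between 0.1 and 1 CPM, and 100% below 0.1 CPM because of the count filter. The share that fell was larger at high DMSO levels: 25.9% of genes between 10 and 100 CPM, and 58.4% above 100 CPM. All 13 tested neuronal markers rose, from a summed level of 10.8 and 13.6 CPM in DMSO to 186 and 133 CPM with Isx-9. Mesenchymal markers rose in 5 of 5 tested (6.24 and 7.27, then 63.4 and 44.4 CPM), Vim among them, while Dcn had 1 count in all and Col3a1 8. Endothelial markers rose in 4 of 5 tested (0.484 and 1.76, then 11.0 and 9.68 CPM); Kdr, Flt1, Tie1 and Erg were at 0 in both DMSO libraries and Erg and Tie1 had 11 and 6 counts with Isx-9. Glial markers rose in 3 of 5 (2.85 and 3.58, then 10.2 and 9.03 CPM), and of 5 immune markers 0 rose and 1 fell (37.7 and 31.7, then 23.2 and 28.8 CPM). Stem cell markers fell in 7 of 8 (10027 and 9921, then 7680 and 6426 CPM), and of 17 enteroendocrine markers 3 rose and 2 fell, with summed levels that overlapped (129 and 200, then 148 and 168 CPM). The part of these shifts in the guidance genes' values was not tested.

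After 6 days most guidance genes measured in whole organoids were higher with Isx-9 than with DMSO, led by Robo1, Ntn1, Sema4f and Plxnc1. With 1 library per condition there is no test, and intervals are exact 95% intervals that cover counting error only. Of 34 members with at least 100 UMIs over both libraries, 21 were at least 2-fold higher with Isx-9 and 0 at least 2-fold lower, where 31.0% of 14748 genes were 2-fold higher and 4.42% 2-fold lower. The median log2 ratio was 1.59 over these members and 0.39 over all such genes. Of the 21, 9 had under 100 UMIs in DMSO, a level at which 87.4% of genes passing the UMI floor were higher. Among members with 100 to under 1000 UMIs in DMSO 10 of 17 were higher, against 39.3% of genes, and with at least 1000 UMIs 2 of 8 (Sema3c and Sema5a), against 6.94%. Between DMSO and the untreated reporter library, 0 of 26 members differed 2-fold (0.0773% of genes were higher and 0.0386% lower). Between the untreated reporter and the wild-type library, 1 of 26 was higher (Sema3f) and 1 lower (Nrp2), against 1.01% and 2.27% of genes.

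Robo1, a Slit receptor, had the largest ratio of the members with a value in DMSO. It had 3 UMIs in each of the wild-type, untreated reporter and DMSO libraries and 1559 with Isx-9, that is 0.0253, 0.0261, 0.0268 and 16.1 CPM of UMIs, a ratio of 602 to DMSO (interval 206 to 2922). Robo2 had 235 UMIs with Isx-9 and 11 in the wild-type library and was not listed in the 2 other matrices, which list a gene only where at least 3 cells hold it. Robo3 had 3, 4, 3 and 86 UMIs in the same order, too few for the 2-fold rule (ratio 33.2, interval 11.0 to 164). Of the ligands, Slit1 read 0.766, 0.670, 0.545 and 15.3 CPM (ratio 28.1, interval 21.8 to 37.0). Slit2, which rose in bulk, read 8.92, 7.07, 6.84 and 7.76 CPM (ratio 1.13, interval 1.02 to 1.26), within the range of the untreated libraries.

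The netrin family also held both large and small ratios. Ntn1 had 3 UMIs in the untreated reporter, 3 in DMSO and 294 with Isx-9 and was not listed in the wild-type library (ratio 114, interval 38.5 to 554). Ntn4 read 5.45, 4.67, 5.13 and 9.40 CPM (ratio 1.83, interval 1.65 to 2.04). Unc5a read 3.01, 2.02, 2.15 and 18.1 CPM, a ratio of 8.43 (interval 7.37 to 9.69), while Unc5b, at 10.7, 6.08, 6.37 and 6.97 CPM, lay within the untreated libraries. Dcc, the attractive netrin receptor, had 6 UMIs with Isx-9 and was not listed elsewhere. Unc5d had 20 UMIs with Isx-9 and Ntn5 5 with Isx-9 and 3 in wild type, and Ntn3 and Unc5c were in none of the 4 matrices.

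Neuropilins and plexins came next. Nrp2 read 3.22, 1.54, 1.86 and 31.7 CPM across wild type, untreated reporter, DMSO and Isx-9 (ratio 17.1, interval 14.8 to 19.7), and Nrp1 7.21, 8.56, 8.36 and 25.1 CPM (ratio 2.998, interval 2.78 to 3.24). Plxnc1 read 0.177, 0.0957, 0.134 and 7.33 CPM (ratio 54.7, interval 33.0 to 98.3). Each of these 3 was higher with Isx-9 than in any of the 3 other libraries. Plxnd1 was 5.22-fold higher than in DMSO (1.42 and 7.40 CPM), Plxnb1 3.11-fold (4.84 and 15.04 CPM) and Plxna3 2.38-fold (1.37 and 3.28 CPM). Plxna1, Plxna2 and Plxnb2 stayed within 2-fold, with ratios of 1.52, 1.38 and 1.09, and Plxna4 had 17 and 49 UMIs.

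Semaphorins held both the higher and the unmoved genes. The secreted Sema3f read 0.581, 1.35, 1.29 and 20.5 CPM (ratio 15.97, interval 13.5 to 19.1) and Sema3c 18.3, 9.94, 10.7 and 32.7 CPM (ratio 3.04, interval 2.85 to 3.25). Of the Sema6 ligands, Sema6c was 11.3-fold higher (0.366 and 4.15 CPM), Sema6b 6.53-fold (1.07 and 7.001 CPM) and Sema6a 5.58-fold (4.32 and 24.1 CPM), while Sema6d had a ratio of 0.888 (interval 0.783 to 1.01). Sema4f went from 5 to 240 UMIs (ratio 55.6, interval 23.5 to 173), Sema3g from 16 to 203 UMIs (ratio 14.7, interval 8.83 to 26.2), and Sema4c and Sema5a were 2.54-fold and 2.35-fold higher. Scaling by the median of ratios divides all ratios by 1.18, which leaves Sema5a just under 2-fold (log2 ratio 0.9993). Sema5b had 123 UMIs with Isx-9 and was not listed in the 3 other matrices. Within 2-fold of DMSO were Sema3b (ratio 1.63), Sema4a (0.867), Sema4b (0.9996), Sema4d (1.56), Sema4g (0.625, interval 0.597 to 0.655) and Sema7a (0.633, interval 0.591 to 0.678). Sema3a, Sema3d and Sema3e, with 37, 28 and 80 UMIs in the Isx-9 library, were under the floor of 100 UMIs.

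Both data sets can be set side by side, since they come from different samples. Of the 19 members at least 2-fold higher than a DMSO level above 0 at 6 days, 17 had risen in the sorted stem cells at 6 hours. Of the 3540 genes of the whole table that met the same 2-fold rule and were tested in bulk, 74.7% had risen there. By level, 6 of 7 members with under 100 UMIs in DMSO had risen, against 82.6% of such genes, and 11 of 12 with at least 100 UMIs, against 68.6%. The lower level is partly fixed in advance. Robo1, Ntn1, Plxnc1 and Sema4f were below 0.1 CPM in bulk DMSO, where all 901 genes tested rose because of the count filter. With at least 100 UMIs in DMSO, most genes higher at 6 days were already higher at 6 hours, members and others alike. The 2 other members were Sema3g and Sema4c, which did not pass at 6 hours (log2 fold changes 1.15 and -0.24). Slit2, Unc5b, Ntn4 and Plxna2 rose at 6 hours and were within 2-fold at 6 days. The 4 members that fell at 6 hours (Sema4g, Sema6d, Sema4b and Plxnb2) were also within 2-fold at 6 days.

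**Figure D3:**
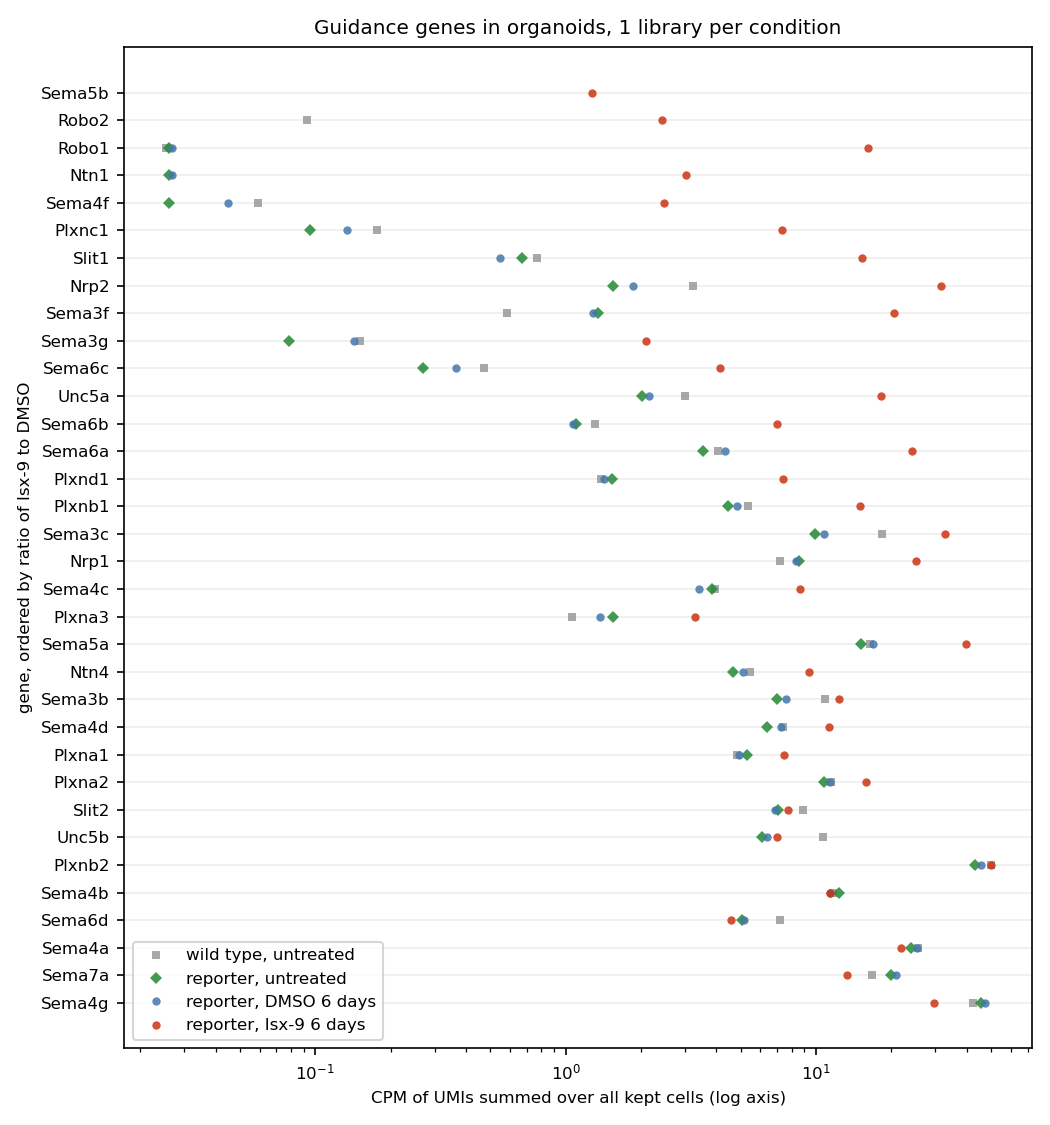
Level of guidance genes with at least 100 UMIs over DMSO and Isx-9 in the 4 single-cell libraries, as CPM of UMIs on a log axis, 1 point per library, ordered by the ratio of Isx-9 to DMSO; a gene not listed in a library has no point there. The wild-type, untreated reporter and DMSO points lie close together in most rows, while the Isx-9 point is far to the right for Robo1 (0.0268 in DMSO, 16.1 with Isx-9) and on the same spot for Sema4b.

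Cell makeup differed strongly between these libraries. Enteroendocrine-like cells, named from hormone and granule markers such as Chga, Chgb and Neurod1, were 7.15% of kept wild-type cells, 6.52% in the untreated reporter, 6.35% in DMSO and 53.2% with Isx-9. Most of the other Isx-9 cells fell in 3 clusters that hold almost no cells of the other libraries and were left unnamed. Cluster 3 was led by the aspartic protease gene Cym and cluster 13 by Clu. Cluster 17 was led by the histone gene Hist1h2ap and the tubulin gene Tubb6, with Cym behind them, and its proliferation marker Mki67 stood at 445 CPM, against 49.0 CPM in cluster 3 and 34.1 CPM in cluster 13. Other markers moved as well. Neuronal markers were at least 2-fold higher with Isx-9 in 16 of 16 measured (sum 30.5 to 708 CPM), endothelial in 4 of 4 (0.795 to 21.8 CPM), mesenchymal in 6 of 7 (35.4 to 365 CPM, with Vim from 3807 to 33565 UMIs), glial in 3 of 3 (3.37 to 14.6 CPM) and immune in 2 of 4 (3.71 to 22.6 CPM, with Cd74 from 45 to 1689 and the leukocyte gene Ptprc from 16 to 11 UMIs). Of all genes with at least 100 UMIs over both libraries, 31.0% were 2-fold higher, and 87.4% of those under 100 UMIs in DMSO. The 4 endothelial markers were under 100 UMIs in DMSO or not listed there, so they passed the floor through Isx-9. Of those below the floor, Tek went from 15 to 9 UMIs and Tie1 from 3 to not listed. Cldn5 went from 6 to 37, and Emcn and Erg had 6 and 4, only with Isx-9. The part of these markers in the guidance genes' ratios was not tested.

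Without Isx-9, several guidance genes were concentrated in 1 cell class. In enteroendocrine-like cells of the 3 libraries without Isx-9, the coreceptor Nrp2 averaged 38.2 ± 5.0 CPM (SD, n = 3 libraries), Unc5a 36.5 ± 4.95, Nrp1 34.1 ± 3.05 and Slit1 14.4 ± 2.43. The next class stood at 7.18 ± 2.38 CPM for Nrp2 and 6.84 ± 1.26 for Unc5a (both Paneth-like), 10.4 ± 1.92 for Nrp1 (stem-like) and 0.850 ± 0.19 for Slit1 (goblet-like), so the libraries' values did not overlap between these classes. In tuft-like cells, the chemosensory cells of the epithelium, Unc5b averaged 29.5 ± 4.84 CPM, Ntn4 23.4 ± 3.06, Sema6c 13.6 ± 4.69 and Plxna4 9.39 ± 0.97. Plxna4 averaged 0.0698 ± 0.12 CPM in the next class. Enterocyte-like cells had the highest Sema4g (86.4 ± 4.65 CPM) and Sema6a (23.4 ± 0.66 CPM). These 3 libraries are 2 genotypes and 2 treatments, so their SD is the spread over libraries and not a replicate error.

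**Figure D4:**
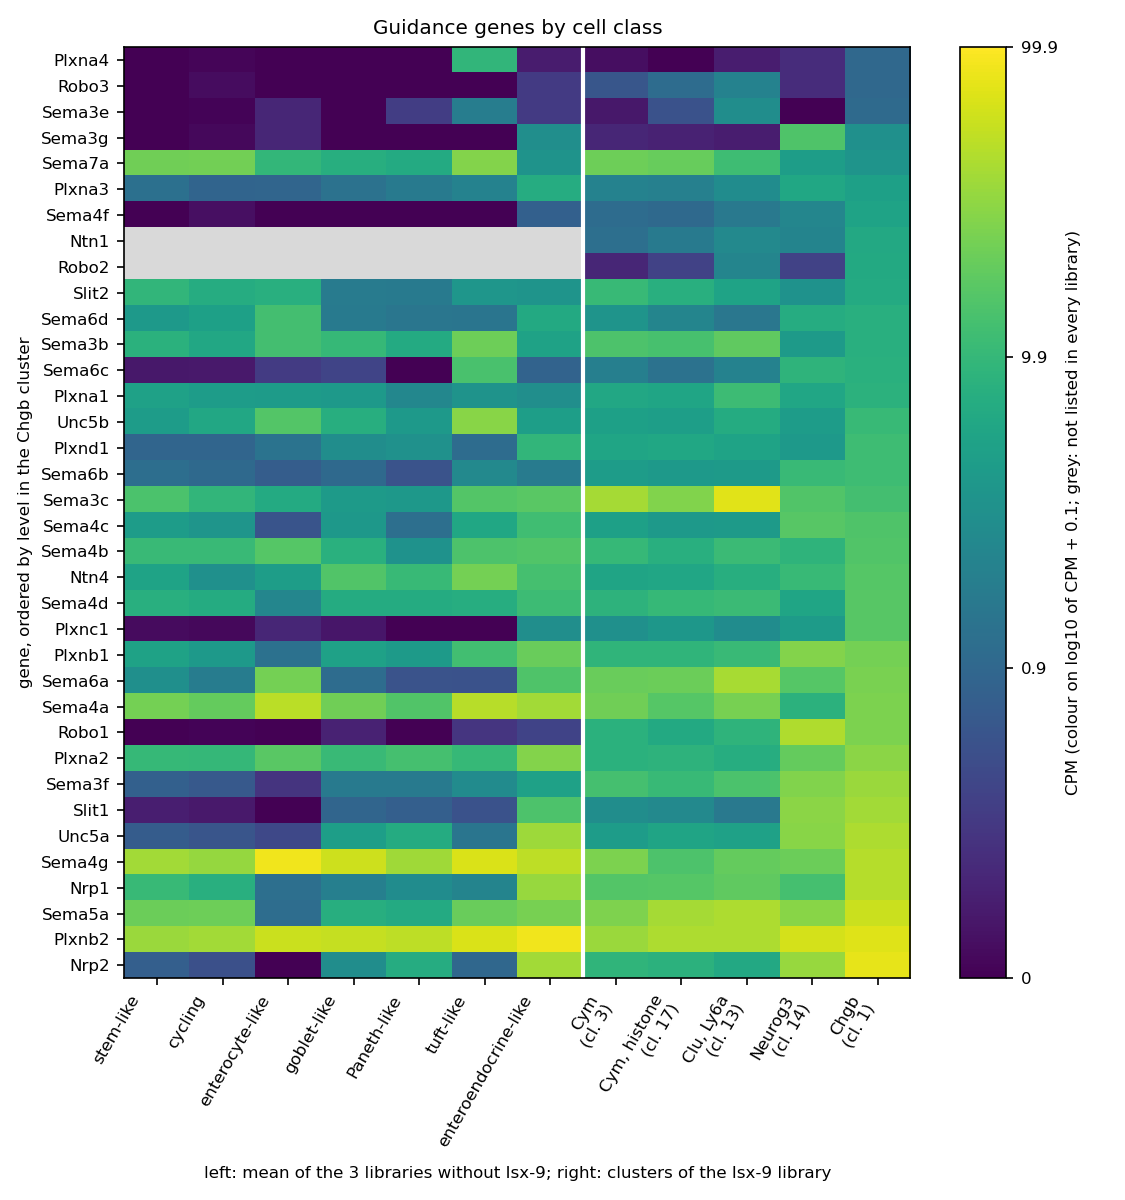
Level of guidance genes by cell class as log10 of CPM plus 0.1: the left columns are the means of the 3 libraries without Isx-9 in 7 classes, the right columns 5 clusters of the Isx-9 library, and grey marks genes not listed in every library. Nrp2 and Unc5a are bright in the enteroendocrine-like column on the left, and Robo1 is dark in the 7 left columns and between 6.59 and 44.3 CPM in the Isx-9 columns.

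Within enteroendocrine-like cells fewer members reached a 2-fold difference. The class had 524 cells in DMSO (clusters 15, 16 and 18 hold all of them) and 4903 with Isx-9 (mostly clusters 1 and 14), at medians of 7894 and 7249 UMIs. Of 33 members with at least 100 UMIs, 13 were at least 2-fold higher with Isx-9 and 0 lower, where 19.2% of 12771 genes were higher and 3.03% lower. The median log2 ratio was 0.53, against 0.20 over all such genes. Of the 25 members under 100 UMIs in DMSO 12 were higher, against 32.7% of genes at that level, and of the 8 above it 1 was (Sema5a), against 2.53%.

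Robo1 had 1 UMI in the DMSO enteroendocrine-like cells and 1071 with Isx-9, or 0.236 and 29.4 CPM (ratio 124, interval 22.3 to 4918). Robo2 was not listed in DMSO and had 198 UMIs in these cells with Isx-9 (5.44 CPM). Wild-type enteroendocrine-like cells held 10 UMIs of Robo2 (2.10 CPM), so its ratio to wild type was 2.60 (interval 1.38 to 5.50). Sema6c (0.236 to 7.96 CPM) and Ntn1 (0.236 to 5.52 CPM) also started from 1 UMI, so their ratios of 33.7 and 23.3 have lower bounds of 6.00 and 4.14. Sema3f went from 5.20 to 33.5 CPM (ratio 6.44, interval 4.24 to 10.3), Sema6b from 2.60 to 11.5 CPM, Plxnc1 from 3.55 to 14.2 CPM and Slit1 from 11.6 to 36.5 CPM (ratio 3.15, interval 2.37 to 4.28). Unc5b, Plxna1 and Slit2 were at least 2-fold above DMSO here and within 2-fold over all cells, on 14, 12 and 10 DMSO UMIs. Unc5b read 6.70, 4.01, 3.31 and 9.39 CPM in the enteroendocrine-like cells of wild type, untreated reporter, DMSO and Isx-9, a ratio of 2.84 to DMSO (interval 1.67 to 5.25) but of 1.40 to wild type (interval 0.974 to 2.08). Slit2 read 5.03, 2.89, 2.36 and 6.10 CPM in the same order, a ratio of 2.58 to DMSO (interval 1.38 to 5.45) but of 1.21 to wild type (interval 0.794 to 1.93). Against wild-type cells both were therefore within 2-fold. Plxna1 read 2.30, 3.78, 2.84 and 7.91 CPM, with ratios of 2.79 to DMSO (interval 1.57 to 5.46) and 3.43 to wild type (interval 1.89 to 6.95).

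Several receptors with a large ratio over all cells had a ratio near 1 inside this class. Unc5a read 34.8 CPM in DMSO and 40.3 CPM with Isx-9 (ratio 1.16, interval 0.978 to 1.38) against 8.43 over all cells. Plxnd1 read 9.46 and 10.2 CPM (ratio 1.08, interval 0.778 to 1.54) against 5.22 over all cells, and Nrp1 32.4 and 39.7 CPM (ratio 1.23, interval 1.03 to 1.47) against 2.998. Nrp2 kept part of its difference, at 39.2 and 70.1 CPM (ratio 1.79, interval 1.53 to 2.10). Sema4a (ratio 0.519, interval 0.441 to 0.613), Plxna3 (0.639, interval 0.442 to 0.950, on 34 DMSO UMIs), Sema4g (0.752, interval 0.654 to 0.867) and Plxnb2 (0.775, interval 0.695 to 0.865) had intervals below 1, none of them 2-fold lower. Against wild type the ratio of Plxna3 was 0.817, with an interval of 0.554 to 1.245 that includes 1. Sema3c had a ratio of 0.813 (interval 0.630 to 1.06), whose direction turned with doublets left in (log2 ratio 0.28).

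Cells outside the class gave another order. They are stem-like, cycling, enterocyte-like, goblet-like, tuft-like, Paneth-like and unnamed cells in DMSO and almost only the unnamed clusters with Isx-9, so the ratio compares different cells. Of 29 members with at least 100 UMIs, 14 were at least 2-fold higher and 1 lower (Sema4g), where 21.8% of 13542 genes were higher and 3.91% lower; the median log2 ratio was 0.95 over these members and 0.12 over all such genes. All 6 members under 100 UMIs in DMSO were higher (85.8% of genes at that level), Slit1 among them, as were 7 of 15 with 100 to under 1000 UMIs (26.4%) and 1 of 8 with at least 1000 (3.53%). Robo1 went from 2 to 488 UMIs (ratio 436, interval 120 to 3612), and Plxnc1 from 0 to 193 UMIs, at least 115-fold higher against a floor of 3 UMIs. Nrp2 went from 0.390 to 8.47 CPM (ratio 21.7, interval 15.9 to 30.5), Sema3f from 1.13 to 12.7 CPM, Sema6a from 3.86 to 24.6 CPM, Unc5a from 0.872 to 4.78 CPM, Plxnd1 from 1.10 to 5.71 CPM and Sema3c from 10.5 to 44.5 CPM. Sema4g went from 47.0 to 22.7 CPM (ratio 0.482, interval 0.454 to 0.512) and Sema6d from 5.11 to 2.75 CPM (ratio 0.539). Plxnb2 was below DMSO in both subsets (0.867 here) and slightly above it over all cells (1.09), where scaling by the median of ratios turned it to a log2 ratio of -0.11.

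The markers of enteroendocrine cells give a limited reference for low values outside the class. These markers named the class and, unlike the members, were not left out of the clustering, so their low share outside it is partly built in. Misassigned cells were not tested for members above the marker range either. For the 17 enteroendocrine markers, the level in the other Isx-9 cells was 0.509% to 7.30% of the level inside the class (median 1.71%), and in DMSO 0.0813% to 1.32%. The upper end of the Isx-9 range rests on Scg5 (7.30%) and Pcsk1 (6.69%), and the next marker, Sct, stood at 2.92%. Slit1 (6.96%) and Sema3g (1.84%) lay inside that range, so these values do not tell low expression outside the class from free RNA or misassigned cells, which was not tested. The count of 14 members higher outside the class includes Slit1, with 12 UMIs in DMSO and 153 with Isx-9. Robo2 stood at 11.3%, Unc5a at 11.9%, Nrp2 at 12.1%, Plxnc1 at 22.6%, Robo1 at 27.5%, Ntn1 at 27.9% and Sema3f at 37.9%, all above the highest marker. Of the 37 UMIs of Robo2 in these other cells, 29 were in cluster 13, with 4 and 3 in clusters 3 and 17. Sema6a (106%), Sema3c (341%) and Sema7a (518%) were as high or higher outside the class.

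**Figure D5:**
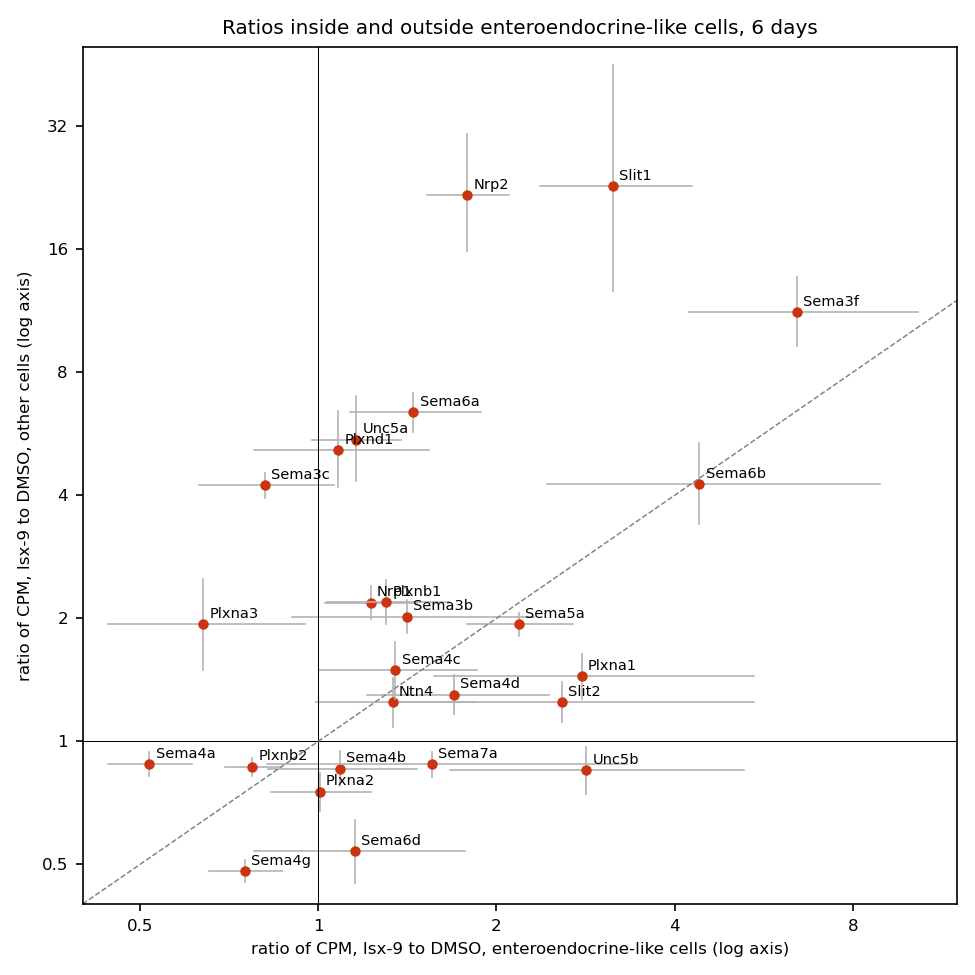
Ratio of Isx-9 to DMSO inside enteroendocrine-like cells (horizontal) and in all other cells (vertical), both on log axes with exact 95% counting intervals, for guidance genes with at least 100 UMIs over both libraries and 10 UMIs in DMSO in each subset; the dashed line marks equal ratios. Unc5a and Plxnd1 sit near 1 on the horizontal axis (1.16 and 1.08) and near 5 on the vertical one (5.48 and 5.17), and Unc5b lies on the opposite side (2.84 and 0.849).

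Clusters of the Isx-9 library differed among themselves in these genes, which took no part in the clustering. Robo1 stood at 44.3 CPM (interval 39.5 to 49.6) in cluster 14, led by Kirrel2 and Neurog3, the transcription factor of enteroendocrine progenitors, and at 25.7 CPM (23.9 to 27.7) in cluster 1, led by Chgb and Pcsk1n. In clusters 3, 13 and 17 it stood at 8.22, 8.88 and 6.59 CPM. Sema3g was at 14.9 CPM (12.2 to 18.1) in cluster 14 and 3.13 CPM in cluster 1, and Nrp2 the other way at 34.0 and 78.0 CPM, as was Nrp1 at 12.9 and 46.0 CPM. Robo2 was at 6.504 CPM in cluster 1, with 2 UMIs in cluster 14. Sema3c stood at 73.6 CPM (69.0 to 78.4) in cluster 13, against 39.5 and 26.9 CPM in clusters 3 and 17 and 12.5 CPM in cluster 1.

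Cluster 15, led by Afp, Reg4 and Tph1, was the 1 enteroendocrine-like cluster with over 100 cells in every library, 192 of them in DMSO and 153 with Isx-9. It was compared after the data had been seen. The Isx-9 cells of this cluster were shallower: 1 UMI made 3.06 CPM there, against 0.739 CPM in its DMSO cells. Whether they were low-quality or misplaced cells was not tested. Robo1 had 0 UMIs there in the wild-type, untreated reporter and DMSO libraries and 14 with Isx-9. Nrp2 read 74.3, 77.9, 85.01 and 138 CPM (ratio to DMSO 1.62, interval 1.12 to 2.31) and Sema6a 13.3, 21.3, 19.96 and 58.2 CPM (ratio 2.91, interval 1.53 to 5.44). Both were highest with Isx-9. Unc5a read 36.0, 47.0, 40.7 and 36.7 CPM, a ratio of 0.904 whose interval of 0.440 to 1.71 is too wide to place it on either side of 1.

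Pathway genes beyond the members are read against the same background at 6 days, when 31.0% of all genes were 2-fold higher, 4.42% lower, and the median log2 ratio was 0.39. Of 35 effectors with at least 100 UMIs, 17 were at least 2-fold higher and 0 lower (median log2 ratio 0.93), led by Crmp1 (ratio 91.6), Enah (65.9), Dpysl3 (44.3) and the kinase gene Pak3 (20.02). Dpysl4 had 577 UMIs with Isx-9 and was not listed in DMSO. The GTPases Rhoa and Rac1 had ratios of 0.857 and 0.713. Of 31 other guidance genes, 17 were higher and 0 lower (median log2 ratio 1.03), led by Ntng1 (ratio 144), Dscaml1 (49.3), Cntn2 (45.9) and Draxin (32.3), which encodes a secreted repellent. In DMSO, Crmp1 and Dpysl3 had 57 and 65 UMIs, and Ntng1, Dscaml1, Cntn2 and Draxin had 12, 16, 3 and 11. Under 100 UMIs in DMSO, 87.4% of genes passing the UMI floor were higher. Enah and Pak3 had 105 and 302 UMIs, a level at which 39.3% of genes were higher.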

How the data were processed

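Bulk RNA-seq (2 DMSO and 2 Isx-9 libraries of sorted stem cells) and single-cell RNA-seq (4 libraries) were analysed; the ATAC-seq samples are not analysed here. The authors deposited raw counts per gene for bulk and raw UMI counts per cell for single cells. Per the submitters' processing notes, Trim Galore 0.6.4, HISAT2, HTSeq 0.12.4, DESeq2 1.24.0, Cell Ranger 3.1.0, Seurat 3.1.5 and build GRCm38 were used. The library kit for bulk does not mark strand, so overlapping genes cannot be told apart. The authors' deposited comparison table also holds a normalised signal, a log2 fold change, a test score and p-values; every value printed was computed from the counts instead.

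Bulk counts were tested with edgeR 4.0.16 (R 4.3.3): filterByExpr, TMM scaling, quasi-likelihood test of treatment, Benjamini-Hochberg adjustment over all genes tested, threshold 0.05. Count ratios from 1 to 3 counts carry exact 95% binomial intervals. In simulated counts, 39.5%, 60.5% and 83.0% of 200 genes changed 1.5-, 2- and 4-fold were recovered among 17418. Replicates of a group differed by more than sampling noise (chi-square per degree of freedom 8.73 and 7.13), so none was counted as a duplicate.

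The cell filter required 500 genes, 1000 UMIs and no more than 20% of UMIs from mitochondrial genes. Scrublet's automatic threshold marked 2, 1 and 1 cells in 3 libraries, so the 8% of cells with the highest doublet scores were removed per library instead, a choice made after seeing the data. The 4 libraries were clustered together (scanpy 1.11.5, 2000 variable genes without the members, 30 components, 15 neighbours, Leiden resolution 1) and clusters named from marker lists. UMIs were summed per library and class. With 1 library a condition, a member with at least 100 UMIs over both libraries counts as higher or lower from a 2-fold ratio.

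Named are all members that passed in bulk or had 100 UMIs, members below by their counts, and up to 4 genes of each other list. Members and lists were chosen with earlier results of these data known. Alternatives were other scaling, DESeq2 1.42.0, no filter, each replicate left out, a replicate block, all barcodes, doublets left in, Leiden resolution 0.5 and, added later, other control libraries for the enteroendocrine-like cells. Promoter windows come from RefSeq.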

Additional observations from a re-analysis of the deposited data

Results flagged for a closer look

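In the 3 cases given here the contrast of Isx-9 with DMSO pointed in opposite directions, with single-cell intervals that excluded 1 and, for Plxnb2, a bulk call. For Plxna3 and Unc5b it did so between groups of single cells, and for Plxnb2 between the bulk and single-cell data. The difference itself was not tested, since the single-cell data have 1 library per condition. The plexin gene Plxna3 had an Isx-9 to DMSO ratio of 0.639 inside enteroendocrine-like cells (interval 0.442 to 0.950, on 34 DMSO UMIs) and 1.94 in the other cells; against wild type the first was 0.817, with an interval of 0.554 to 1.245. The netrin receptor gene Unc5b had a ratio of 2.84 inside enteroendocrine-like cells (interval 1.67 to 5.25, on 14 DMSO UMIs) and 0.849 in the other cells; against wild type the first was 1.40, with an interval of 0.974 to 2.08. Plxnb2 had a log2 ratio of 0.12 over all single cells at 6 days and a log2 fold change of -0.25 in sorted stem cells at 6 hours. Scaled by the median of ratios, the single-cell value became -0.11. Inside enteroendocrine-like cells and in the other cells its ratios were 0.775 and 0.867, both below DMSO. Further members also pointed both ways, with a value on 1 side not clear of no change. Sema3c had a ratio of 0.813 inside enteroendocrine-like cells (interval 0.630 to 1.06) and 4.23 in the other cells. Sema4c had a log2 fold change of -0.24 in bulk, which did not pass, and was 2.54-fold higher at 6 days. These are examples and not a full list.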

How the results depend on the processing

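At 6 hours, 26 members rose with DESeq2's size factors in edgeR, with library size alone, with DESeq2's own test and with the replicate block, and 24 without a filter on low counts; with 1 library left out the count lay between 24 and 25. The 4 members that fell became 2 with library size alone and between 1 and 4 with 1 library left out, 1 of them without Isx-9 replicate 1; the cause was not tested. A treatment with 1 library left is assumed there to vary like the other treatment's pair. No called member changed sign under these settings. The lost calls named above by gene are not a full list. With library size alone 2 calls were lost, and only that of Plxnb2 is named. The replicate block gave 26 and 4 members and changed no call; replicates of the same number shared a correlation of deviations of 0.0125, so the numbers are not read as a pairing. At 6 days the count of members at least 2-fold higher lay between 20 (median of ratios scaling) and 23 (all deposited barcodes), and the count lower was 0 throughout. Inside enteroendocrine-like cells 12 to 13 were higher and 0 lower, or, with other control libraries added after seeing the data, 10 against wild type and 15 against the untreated reporter, with 0 lower. In the other cells 13 to 14 were higher and 1 lower. With doublets left in, the log2 ratios of Sema3c and Sema6a inside enteroendocrine-like cells became 0.28 and 0.92. The automatic doublet threshold, added after seeing the data, left the counts at 21 and 0. Members under 100 UMIs, Robo3 among them, are limited by depth.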
